A study of Arabidopsis thaliana with 8 samples.

Results

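The 10 genes described here encode dehydrins and other small hydrophilic proteins whose transcripts are classical markers of the cold, drought and abscisic acid (ABA) responses of Arabidopsis. They are RD29A (AT5G52310), RD29B (AT5G52300), RAB18 (AT5G66400), LTI30 (AT3G50970), ERD10 (AT1G20450), COR47 (AT1G20440), ERD14 (AT1G76180), COR15A (AT2G42540), COR15B (AT2G42530) and KIN1 (AT5G15960). The genes were listed by locus and not by a cutoff on their values, but with earlier results of these data known. They stand among 25410 loci with a probe on the array, and 23 of the 43603 probes read them. Every one of the 10 genes had at least 1 probe that passed the filter on low signal, so all 10 were tested.

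Dehydrins are late embryogenesis abundant (LEA) proteins that share a lysine-rich segment, stay largely unfolded in solution and protect membranes and enzymes when cells lose water. RAB18, LTI30, ERD10, COR47 and ERD14 belong to this family, COR15A and COR15B are LEA proteins of the chloroplast stroma that protect membranes during freezing, and RD29A, RD29B and KIN1 are hydrophilic stress proteins outside the dehydrin family. Their promoters are read by CBF (DREB1) factors, which accumulate in the cold and bind the dehydration-responsive element, by DREB2 factors, which act in drought and heat, and by ABF factors, which bind the ABA-responsive element. Guard cells, the paired cells that open and close the stomatal pore, respond to ABA, and RAB18 protein is known to be present in them.

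Guard cell RNA of 5-week-old plants was profiled in 4 groups of 2 arrays, namely bam1 heat, Col-0 heat, bam1 control and Col-0 control. The heat treatment was 32 °C by day and 28 °C by night for 3 d, and control plants stayed at 22 °C and 18 °C. Col-0 is the wild type, and bam1 is a single T-DNA insertion line of β-amylase 1, a chloroplast enzyme of starch breakdown. Each array was hybridized with RNA from stomatal preparations of 5 to 8 pooled plants harvested at the end of the light period, and all replicate 1 samples lay on 1 slide and all replicate 2 samples on another. Values are quantile-normalized log2 intensities, and a gene was called higher or lower at an adjusted P below 0.05 in the limma fit over all 29620 probes tested together with a change of more than 2-fold. A level of 1 probe cannot be set against that of another probe, so genes are compared by their differences between groups.

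The mutant label was checked with the BAM1 probe, which read 6.83 and 7.68 in bam1 heat, 11.72 and 12.22 in Col-0 heat, 6.81 and 6.87 in bam1 control and 11.82 and 11.19 in Col-0 control. Between 61.3% and 70.9% of the probes of an array were well above background. The cell type label was set against marker lists, and all 10 guard cell, 6 mesophyll, 6 vasculature and 5 epidermis markers were well above background on all 8 arrays, so no marker of another cell type was absent. The normalized linear intensities of the guard cell markers summed to 43300 to 47400 in bam1 heat, 51400 to 57700 in Col-0 heat, 59300 to 80200 in bam1 control and 91400 to 94000 in Col-0 control. The mesophyll sums were 736000 to 750000 in bam1 heat, 759000 to 826000 in Col-0 heat, 802000 to 849000 in bam1 control and 816000 to 863000 in Col-0 control. The vasculature sums were 57500 to 60100 in bam1 heat, 48600 to 56800 in Col-0 heat, 70600 to 84000 in bam1 control and 72600 to 86300 in Col-0 control. The epidermis sums were 77800 to 99200 in bam1 heat, 45800 to 105000 in Col-0 heat, 40000 to 52900 in bam1 control and 44000 to 62000 in Col-0 control. Such sums weigh the brightest markers most. The mean log2 of the epidermis markers was 10.97 to 11.02 in bam1 heat and 10.74 to 11.09 in bam1 control. In Col-0 it was 10.77 to 11.08 in heat and 11.06 to 11.27 in control. The median log2 heat change in Col-0 and bam1 was -0.27 and -0.37 for epidermis, -0.86 and -0.54 for guard cell, -0.04 and -0.16 for mesophyll and -0.67 and -0.23 for vasculature markers. In heat 3 of the 10 guard cell markers were called lower in Col-0 and 0 in bam1, 2 of the 6 vasculature markers were called lower in both genotypes, 1 of the 6 mesophyll markers was called higher in both, and 1 of the 5 epidermis markers was called lower in Col-0, beside 21.6% of all probes called in Col-0 and 22.4% in bam1. After scaling to the 75th percentile of each array, 5 guard cell markers were called lower in Col-0 and 2 in bam1, and of the mesophyll markers 1 was called higher and 1 lower in Col-0 and 1 lower in bam1. Their part in the results below was not tested, and in such bulk preparations fewer cells of a type and less RNA per cell cannot be told apart.

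Heat split the 10 genes into 4 that fell steeply in both genotypes and 6 that moved less or unevenly. RD29A, LTI30, COR15A and COR15B were called lower in heat in Col-0 and in bam1, by 4.87-fold to 28.2-fold, and no gene was called higher. Over all probes tested, 10.2% were called lower and 11.4% higher in Col-0 (21.6% in either direction), and 11.4% were called lower and 11% higher in bam1 (22.4%). The median change of the 10 genes was -0.97 (log2, heat over control) in Col-0 and -0.72 in bam1, beside a median of 0.01 over all probes in both. The heat and control arrays did not overlap for 7 of the 10 genes in Col-0, 6 of them lower and 1 higher in heat, beside 34.2% of all probes lower and 36.2% higher without overlap. In bam1 they did not overlap for 4 genes, all lower in heat, beside 34.2% of all probes lower and 34.6% higher; COR15B was left out of this count because it had 1 control value there.

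**Figure D1:**
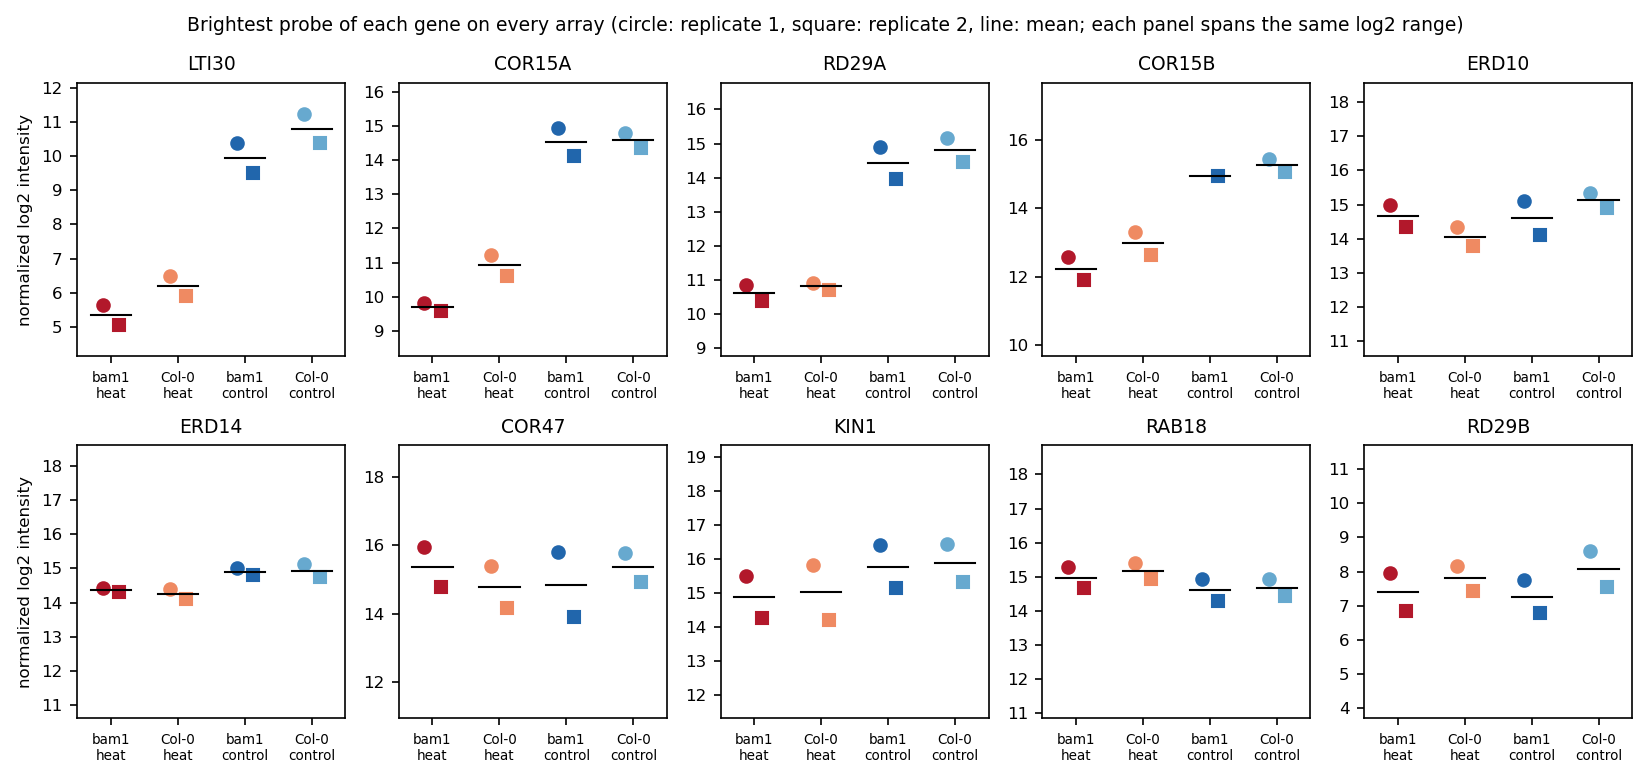
Normalized log2 intensity of the brightest probe of each of the 10 genes on every array, in the groups bam1 heat, Col-0 heat, bam1 control and Col-0 control (circle, replicate 1; square, replicate 2; line, mean). LTI30, COR15A, RD29A and COR15B sit far lower on all 4 heat arrays than on the control arrays, and the other 6 genes shift by less; COR15B lacks replicate 1 of bam1 control.

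RD29A, whose promoter carries both dehydration-responsive and ABA-responsive elements and which is the standard reporter gene of both pathways, read 10.86 and 10.40 in bam1 heat and 10.92 and 10.72 in Col-0 heat. In bam1 control it read 14.91 and 13.97, and in Col-0 control 15.15 and 14.45. Every heat array lay more than 3 log2 units below every control array, and the genotypes lay side by side within each condition. The change was -3.98 ± 0.38 (log2, SE; 15.8-fold lower; adjusted P = 0.000908, limma) in Col-0 and -3.81 ± 0.38 (14-fold lower; adjusted P = 0.000941) in bam1. Within slides it was -4.24 and -3.73 in Col-0 and -4.05 and -3.57 in bam1. A second, dimmer probe of the gene (A_84_P810125) was also called lower, with a change of -4.47 in Col-0 and -4.33 in bam1, where 1 of the 2 heat arrays was well above background.

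LTI30 (also XERO2), a dehydrin named for its induction at low temperature, covered the widest range of the 10 genes. It read 5.64 and 5.06 in bam1 heat, 6.49 and 5.91 in Col-0 heat, 10.39 and 9.51 in bam1 control and 11.23 and 10.38 in Col-0 control. The heat arrays lay far below the control arrays, and the second bam1 heat array was no longer well above background. The change was -4.61 ± 0.43 (SE; 24.4-fold lower; adjusted P = 0.000871, limma) in Col-0 and -4.60 ± 0.43 (24.3-fold lower; adjusted P = 0.000756) in bam1. The bam1 arrays read lower than the Col-0 arrays of the same slide in both conditions, by -0.85 ± 0.43 in heat, where the genotypes did not overlap, and by -0.86 ± 0.43 under control conditions, where they did. Neither genotype difference passed the adjustment (adjusted P = 1 for both, limma).

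COR15A read 9.82 and 9.59 in bam1 heat, 11.23 and 10.61 in Col-0 heat, 14.93 and 14.11 in bam1 control and 14.80 and 14.37 in Col-0 control. The genotypes overlapped under control conditions, whereas in heat both bam1 arrays lay below both Col-0 arrays. The heat change was -4.82 ± 0.34 (SE; 28.2-fold lower; adjusted P = 0.000363, limma) in bam1 and -3.66 ± 0.34 (12.7-fold lower; adjusted P = 0.000882) in Col-0. In heat, bam1 minus Col-0 was -1.22 ± 0.34 (95% interval -2.04 to -0.39), with an unadjusted P of 0.0107 and an adjusted P of 1 in the limma fit. The difference of the heat responses, bam1 minus Col-0, was -1.15 ± 0.49 (95% interval -2.32 to 0.01; unadjusted P = 0.0522, adjusted P = 1, limma), so a stronger response in bam1 was not shown.

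COR15B, which lies next to COR15A on chromosome 2 and encodes a close relative of it, read 12.58 and 11.89 in bam1 heat, 13.31 and 12.63 in Col-0 heat and 15.45 and 15.06 in Col-0 control. In bam1 control it read 14.95 on replicate 2, and the spot of replicate 1 was left out because the scanner software marked it as an outlier; kept, it read 15.44. All heat arrays lay below all control arrays. The change was -2.28 ± 0.35 (SE; 4.87-fold lower; adjusted P = 0.00605, limma) in Col-0 and, with 1 control array, -2.72 ± 0.42 (6.58-fold lower; adjusted P = 0.00635) in bam1. With the marked spot kept, the bam1 change was -2.97 (adjusted P = 0.00161, limma). As for COR15A, both bam1 heat arrays lay below both Col-0 heat arrays, by -0.73 ± 0.35 (adjusted P = 1, limma). Whether the probes of such close relatives tell the transcripts apart was not tested.

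The dehydrins ERD10, ERD14 and COR47, acidic proteins with a serine run beside the lysine-rich segment, were not called in either genotype. ERD10 read 14.99 and 14.35 in bam1 heat, 14.34 and 13.77 in Col-0 heat, 15.09 and 14.11 in bam1 control and 15.35 and 14.91 in Col-0 control. In Col-0 both heat arrays lay below both control arrays, and in bam1 the heat and control arrays overlapped. The change was -1.08 ± 0.40 (SE; adjusted P = 0.0806, limma) in Col-0, which missed the threshold, and 0.07 ± 0.40 (adjusted P = 0.903) in bam1. With the replicate number as a block, the Col-0 change of ERD10 passed it (adjusted P = 0.00411, limma), and it also did without bam1 control replicate 1 or without bam1 control replicate 2 (adjusted P = 0.0499 for both). After scaling to the 75th percentile of each array it was -1.55 (adjusted P = 0.0471, limma). The second probe of ERD10 (A_84_P857480) gave -1.30 in Col-0 and -0.17 in bam1.

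ERD14, a dehydrin with chaperone activity in vitro, read 14.44 and 14.31 in bam1 heat, 14.39 and 14.10 in Col-0 heat, 15.01 and 14.80 in bam1 control and 15.12 and 14.74 in Col-0 control. Heat and control arrays did not overlap in either genotype, but the step between them was small. The change was -0.68 ± 0.20 (SE; 1.60-fold lower; adjusted P = 0.0382, limma) in Col-0, below the 2-fold limit, and -0.53 ± 0.20 (adjusted P = 0.0822) in bam1. All 6 ERD14 probes stayed uncalled, with changes between -0.80 and -0.58 in Col-0 and between -0.71 and 0.00 in bam1. Scaled to the 75th percentile, ERD14 was called lower in Col-0 (-1.10, adjusted P = 0.0223, limma) and reached -0.97 in bam1.

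COR47, whose gene lies next to ERD10 on chromosome 1, read 15.96 and 14.79 in bam1 heat, 15.41 and 14.16 in Col-0 heat, 15.80 and 13.91 in bam1 control and 15.79 and 14.92 in Col-0 control. Replicate 1 lay above replicate 2 in all 4 groups, by more than the fitted heat change. The change was -0.57 ± 0.76 (SE; adjusted P = 0.601, limma) in Col-0 and 0.52 ± 0.76 (adjusted P = 0.63) in bam1. Within slides the values were -0.38 and -0.75 in Col-0 and 0.16 and 0.88 in bam1. The other COR47 probes gave -0.82 and -0.76 in Col-0 and 0.00 and 0.02 in bam1, none of them called. ERD10 and COR47 thus had a lower fitted value in Col-0 heat and a value near or above 0 in bam1, and the difference of the heat responses, bam1 minus Col-0, was 1.15 ± 0.57 for ERD10 (unadjusted P = 0.0858, limma) and 1.09 ± 1.08 for COR47 (unadjusted P = 0.349), each with an adjusted P of 1.

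KIN1, a small cold- and ABA-inducible protein, read 15.49 and 14.26 in bam1 heat, 15.82 and 14.22 in Col-0 heat, 16.40 and 15.15 in bam1 control and 16.44 and 15.32 in Col-0 control. It was lower in heat on each slide in each genotype, yet the slides differed by more than heat and control did, so the groups overlapped. The change was -0.86 ± 0.74 (SE; adjusted P = 0.403, limma) in Col-0 and -0.90 ± 0.74 (adjusted P = 0.384) in bam1. With the replicate number as a block the adjusted P was 0.00709 in Col-0 and 0.00611 in bam1 (limma), with a change still under 2-fold. The second KIN1 probe was not well above background in enough arrays to be tested. KIN1 lies next to its near-identical copy KIN2 on chromosome 5, and cross-hybridization between them was not tested.

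RD29B, a gene whose promoter responds mainly to ABA and which neighbours RD29A on chromosome 5, read 7.95 and 6.84 in bam1 heat, 8.17 and 7.43 in Col-0 heat, 7.74 and 6.79 in bam1 control and 8.61 and 7.55 in Col-0 control. Heat and control arrays overlapped in both genotypes. The change was -0.28 ± 0.56 (SE; 95% interval -1.61 to 1.05; adjusted P = 0.73, limma) in Col-0 and 0.13 ± 0.56 (95% interval -1.20 to 1.47; adjusted P = 0.874) in bam1. The intervals do not reach the change of its neighbour RD29A, which fell by 3.98 and 3.81 on the log2 scale in Col-0 and bam1.

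**Figure D2:**
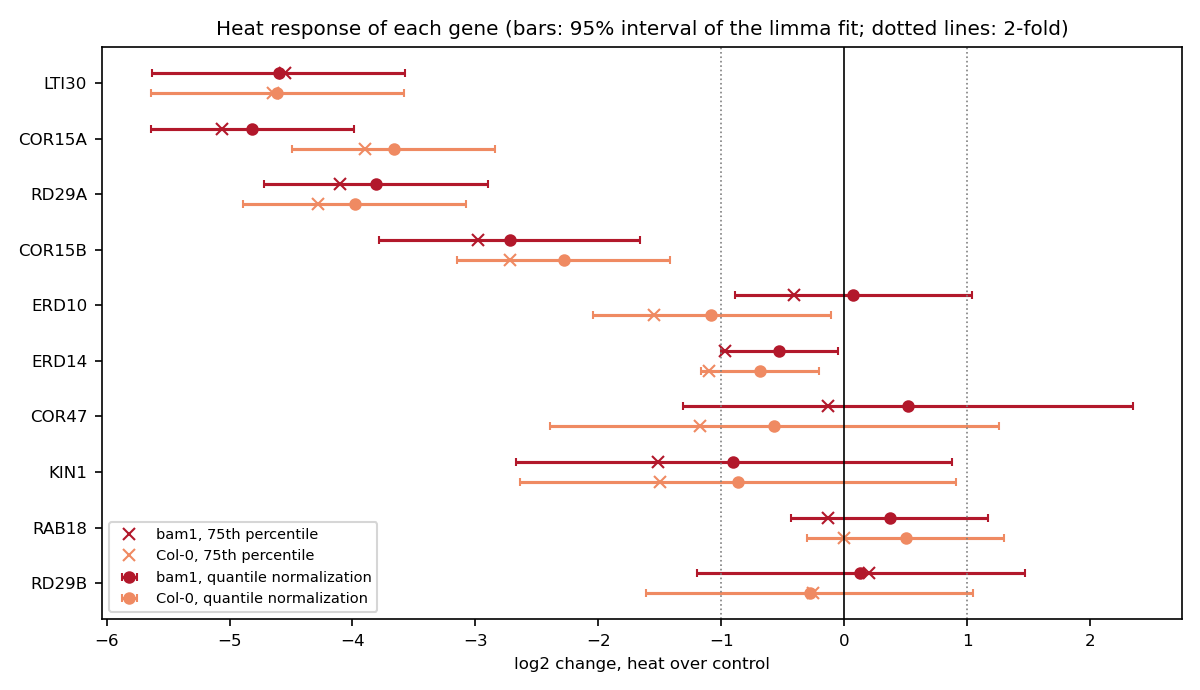
Log2 change (heat over control) of each of the 10 genes in bam1 and Col-0 after quantile normalization (points, with the 95% interval of the limma fit) and after scaling to the 75th percentile of each array (crosses); dotted lines mark 2-fold. LTI30, COR15A, RD29A and COR15B lie between -4.82 and -2.28 by quantile normalization. In both genotypes the crosses of all genes except LTI30 and RD29B lie left of their points.

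RAB18, the ABA-responsive dehydrin of guard cells, gave values that differed between its 4 probes. Its brightest probe (A_84_P811911) read 15.28 and 14.68 in bam1 heat, 15.41 and 14.95 in Col-0 heat, 14.93 and 14.30 in bam1 control and 14.94 and 14.43 in Col-0 control. On this probe the genotypes overlapped, and heat was slightly higher on each slide, with a change of 0.50 ± 0.33 (SE; adjusted P = 0.289, limma) in Col-0 and 0.37 ± 0.33 (adjusted P = 0.428) in bam1. The direction was lost after scaling to the 75th percentile, with 0.00 in Col-0 and -0.13 in bam1.

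The other 3 RAB18 probes, looked at in full after their values were seen, shared another pattern. Probe A_84_P861274 read 13.88 and 14.23 in bam1 heat, 14.71 and 14.72 in Col-0 heat, 13.83 and 14.02 in bam1 control and 15.40 and 15.07 in Col-0 control. Probe A_84_P18843 read 11.78 and 12.09 in bam1 heat, 12.47 and 12.43 in Col-0 heat, 11.91 and 11.93 in bam1 control and 13.59 and 12.80 in Col-0 control. Probe A_84_P811915 read 7.03 and 7.0 in bam1 heat, 7.51 and 7.59 in Col-0 heat, 7.38 and 7.07 in bam1 control and 9.50 and 8.22 in Col-0 control. On these 3 probes both bam1 arrays lay below both Col-0 arrays in heat and under control conditions. Of all probes, 16.2% were lower in bam1 without overlap in heat, and 25.1% did not overlap in either direction under control conditions. The 3 probes read the same gene on the same arrays, so they are not separate observations. Under control conditions, bam1 minus Col-0 was -1.31 ± 0.19 (SE; unadjusted P = 0.000373, adjusted P = 0.526, limma) for A_84_P861274, -1.28 ± 0.27 (unadjusted P = 0.00254, adjusted P = 0.94) for A_84_P18843 and -1.64 ± 0.39 (unadjusted P = 0.0046, adjusted P = 1) for A_84_P811915, against -0.07 ± 0.33 for the brightest probe. In heat the same difference was -0.66, -0.51 and -0.53 on the 3 probes and -0.20 on the brightest. The heat change in Col-0 was -0.52 and -0.75 for A_84_P861274 and A_84_P18843, not called, and -1.31 (adjusted P = 0.04, limma) for A_84_P811915, which was called lower. These calls changed after scaling to the 75th percentile. A_84_P861274 was then called lower in Col-0 (-1.05, adjusted P = 0.0247, limma), and A_84_P811915 was not called (-1.25, adjusted P = 0.051, limma). By quantile normalization the 3 probes gave 0.13, 0.01 and -0.21 in bam1. No genotype difference of any RAB18 probe passed the adjustment, and which probe reads the RAB18 transcript best was not tested.

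**Figure D3:**
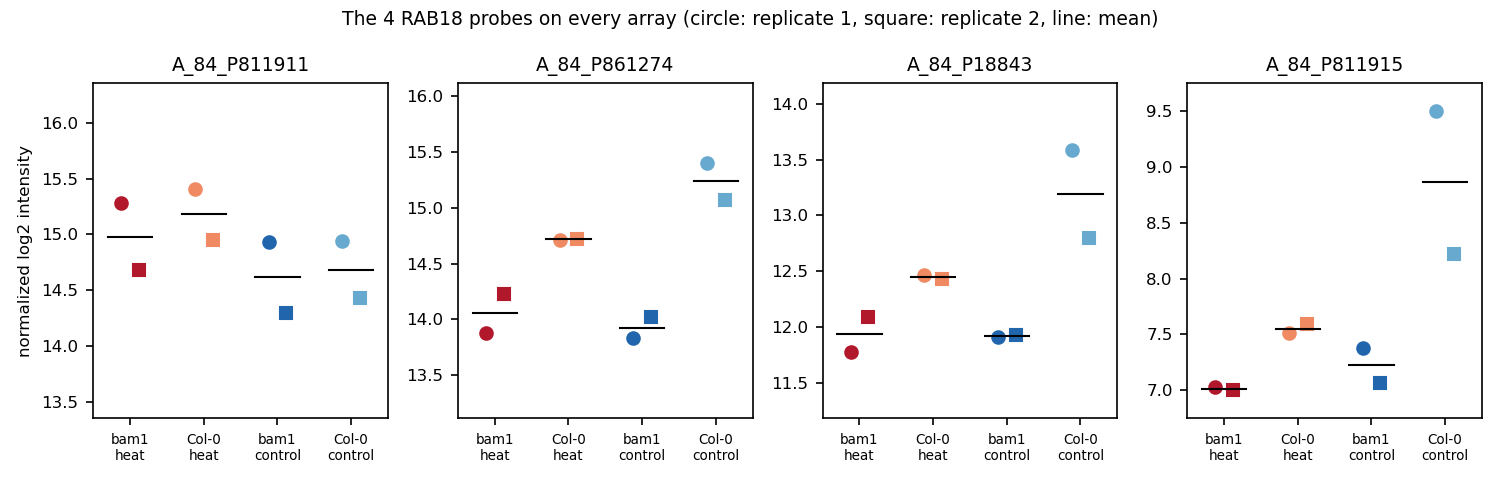
Normalized log2 intensity of the 4 RAB18 probes on every array, in the groups bam1 heat, Col-0 heat, bam1 control and Col-0 control (circle, replicate 1; square, replicate 2; line, mean). The brightest probe (left) shows no gap between genotypes, and on the other 3 the bam1 arrays lie below the Col-0 arrays in both conditions.

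The genotype comparisons asked whether loss of BAM1 moved these genes with or without heat, and no gene was called in either (0.00338% of all probes were called under control conditions and 0% in heat, in either direction). By their brightest probes, 0 of the 10 genes had an unadjusted P below 0.05 (limma) under control conditions, where 4% of all probes did. In heat 1 of the 10 did (COR15A), beside 3.27% of all probes. The other RAB18 probes (A_84_P861274, A_84_P18843 and A_84_P811915) were outside this count. Their unadjusted P was 0.000373, 0.00254 and 0.0046 under control conditions and 0.0127, 0.101 and 0.213 in heat (limma), and none passed the adjustment. Under control conditions the brightest probes of all 10 genes had a fitted value below 0, at -0.86 to -0.02. Their median was -0.33, beside a median of 0.02 over all probes. The brightest probe separated the genotypes for none of the 9 genes with both values in each group, beside 25.1% of all probes that did. COR15B, with 1 bam1 control value (14.95) that lay below both Col-0 values, was left out of this count. In the same arrays all 10 guard cell markers had a value below 0, with a median of -0.64 and none called; the part of this in the values of the 10 genes was not tested. In heat 7 of the 10 genes were below 0, with a median of -0.20. There the bam1 arrays lay below the Col-0 arrays without overlap for LTI30, COR15A and COR15B and above them for ERD10 (0.62 ± 0.40), beside 16.2% of all probes lower and 12.8% higher without overlap. For the difference of the heat responses no gene was called (0.00338% of all probes), and 0 of 10 had an unadjusted P below 0.05 (limma; 2.75% of all probes).

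Across the 8 arrays the genes correlated to different degrees. RD29A correlated with LTI30 at r = 0.99, with COR15A at 0.98, with ERD14 at 0.94 and with COR15B, over 7 arrays, at 0.97 (Pearson). ERD10 and COR47 correlated with each other at 0.84 and with RD29A at 0.59 and 0.16, and the brightest RAB18 probe correlated with RD29A at -0.47. KIN1 lay between, at 0.67 with RD29A, 0.81 with ERD14, 0.79 with ERD10 and 0.74 with COR47, and ERD14 correlated with ERD10 at 0.74. The points share the 4 groups and the 2 slides, so these values describe these arrays only. By the same measure the loci most like RD29A, among 18379 compared, were KAT5 (r = 0.998), a peroxisomal thiolase of fatty acid breakdown, AT5G11610 (0.997) and AT1G74320 (0.997). Those most like COR15A were AT4G02800, the glutathione peroxidase GPX1 and AT2G43760 (0.996 each), and KAT5 and GPX1 changed in heat by -2.57 and -1.47 in Col-0. The loci most like RAB18 by its brightest probe were OTP51 (0.986), SWC2 (0.982) and AT2G36130 (0.977), and those most like COR47 were RAN3 (0.988), AT5G35460 (0.987) and AT4G28080 (0.985).

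None of the 8 CBF and DREB factors was called in heat in Col-0 or in bam1, with median changes of -0.33 and -0.34. Over all probes 21.6% were called in Col-0 and 22.4% in bam1, so 0 of so few genes does not set the list apart. With the replicate number as a block, RAP2.1 was called lower in Col-0 (-1.08, adjusted P = 0.0438, limma). CBF1, CBF2 and CBF3, named like RAP2.1, RD20 and KIN2 after their values were seen, gave -1.43 ± 0.82, -1.88 ± 0.69 and -1.30 ± 0.59 in Col-0 (SE; adjusted P = 0.219, 0.0761 and 0.131, limma) and -0.27, -0.57 and -0.81 in bam1. In Col-0 the list held 4 values above 0 and 4 below. Without overlap, 2 genes were higher and 4 lower in heat, beside 36.2% and 34.2% of all probes. The 4 lower were CBF1, CBF2, CBF3 and RAP2.1. The 2 higher were DREB2B (0.76 ± 0.21, adjusted P = 0.0325, limma, under 2-fold) and DREB2C (0.42 ± 0.22, adjusted P = 0.186), also named after their values were seen. In bam1 DREB2B and DREB2C gave 0.08 and 0.20. The slides differed for CBF1, which changed by -2.52 on slide 1 and -0.33 on slide 2 in Col-0, and by 1.21 and -1.76 in bam1. Of the 7 upstream cold regulators tested out of 8, 1 was called lower in both genotypes. This was ZAT12, a zinc finger protein of cold and oxidative stress, which read 10.25 and 9.71 in bam1 heat, 9.16 and 9.16 in Col-0 heat, 11.02 and 11.65 in bam1 control and 11.83 and 10.64 in Col-0 control. The change was -2.07 ± 0.42 (log2, SE; adjusted P = 0.0113, limma) in Col-0 and -1.35 ± 0.42 (adjusted P = 0.0463) in bam1.

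Of the 6 factors that bind the ABA-responsive element, only ABF3 was called, and it was higher in heat in both genotypes. Over all probes 11.4% were called higher in Col-0 and 11% in bam1, so 1 of so few genes does not set the list apart. ABF3 read 13.17 and 13.15 in bam1 heat, 13.25 and 13.15 in Col-0 heat, 11.22 and 10.78 in bam1 control and 11.91 and 11.24 in Col-0 control. It rose by 1.62 ± 0.26 (log2, SE; adjusted P = 0.00475, limma) in Col-0 and 2.16 ± 0.26 (adjusted P = 0.00172) in bam1. The median of the 6 factors was 0.01 in Col-0 and 0.16 in bam1.

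Further dehydrins and LEA genes were measured less completely. Of 5 other dehydrins 2 were tested, HIRD11 and AT4G38410 (also named after their values were seen), and neither was called in either genotype. Of 7 other LEA genes 3 were tested, and LEA7 and LEA4-1 were called higher in heat in both genotypes. Over all probes 11.4% were called higher in Col-0 and 11% in bam1. LEA7 and LEA4-1 passed the filter on low signal only through the heat groups. A gene so dim in control plants could be tested only if bright in heat, so the filter fixed the direction of these 2 calls beforehand. LEA7 read 7.35 and 7.70 in bam1 heat, 7.54 and 7.72 in Col-0 heat, 4.12 and 3.92 in bam1 control and 3.74 and 3.33 in Col-0 control. It was not well above background on either Col-0 control array and on 1 of the 2 bam1 control arrays. Against a floor for the dim group, it was 13.7-fold higher in Col-0 heat (adjusted P = 0.000237, limma). The fitted change in bam1 was 3.51 (adjusted P = 0.000237, limma). By the same measure LEA4-1 was 6.36-fold higher in Col-0 heat (adjusted P = 0.00158, limma), and it changed by 3.25 (adjusted P = 0.000774) in bam1. For such a fold the bright group's mean is set against a floor for the dim group, averaged over its arrays. The floor is the probe's own reading or, where that is dimmer, the weakest signal still well above background on the same array. Brighter readings could also fail to be well above background, as for AT2G21490, at 5.00 on replicate 2 of bam1 control. Such a fold is therefore not a strict lower bound.

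Among 12 other cold and drought targets, 3 were called lower and 2 higher, the same genes in both genotypes. Over all probes 10.2% were called lower and 11.4% higher in Col-0, and 11.4% lower and 11% higher in bam1. After scaling to the 75th percentile, 4 of the 12 were called lower in Col-0 and 5 in bam1, with 2 higher in each. COR413PM1, a plasma membrane protein, read 12.02 and 12.01 in bam1 heat, 12.21 and 12.04 in Col-0 heat, 14.64 and 14.61 in bam1 control and 14.68 and 14.57 in Col-0 control. The change was -2.50 ± 0.14 (log2, SE; adjusted P = 0.00027, limma) in Col-0 and -2.61 ± 0.14 (adjusted P = 0.00019) in bam1, and the 2 replicates of each group nearly coincided. COR413IM1, its relative in the chloroplast inner envelope, changed by -2.05 and -2.15 on the slides in Col-0 and by -2.58 and -2.83 in bam1 (adjusted P = 0.000396 and 0.000179, limma). ERD7, an early dehydration gene, changed by -1.49 (adjusted P = 0.00361, limma) in Col-0 and -1.09 (adjusted P = 0.0107) in bam1. The opposite movement came from LTP3 and LTP4, lipid transfer proteins known to respond to ABA and drought. LTP4 read 9.61 and 9.74 in bam1 heat and 9.21 and 9.74 in Col-0 heat and was not well above background on any control array. Against the floor for the dim group it was 148-fold higher in bam1 heat (adjusted P = 5.68e-05, limma). In Col-0 heat it was 77.6-fold higher (adjusted P = 9.27e-05, limma). These folds rest on the floor and are not strict lower bounds. Like LEA7 and LEA4-1, LTP4 passed the filter on low signal only through the heat groups, which fixed its direction beforehand. LTP3 rose by 5.44 in bam1 (adjusted P = 0.000167, limma) and by 4.35 in Col-0 (adjusted P = 0.000342). With the replicate number as a block, RD20 was called higher as well in bam1 (1.26, adjusted P = 0.0157, limma). KIN2, the copy of KIN1, gave -0.39 in Col-0 and -0.47 in bam1, not called, and was called lower only after scaling to the 75th percentile, by -1.14 and -1.32.

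**Figure D4:**
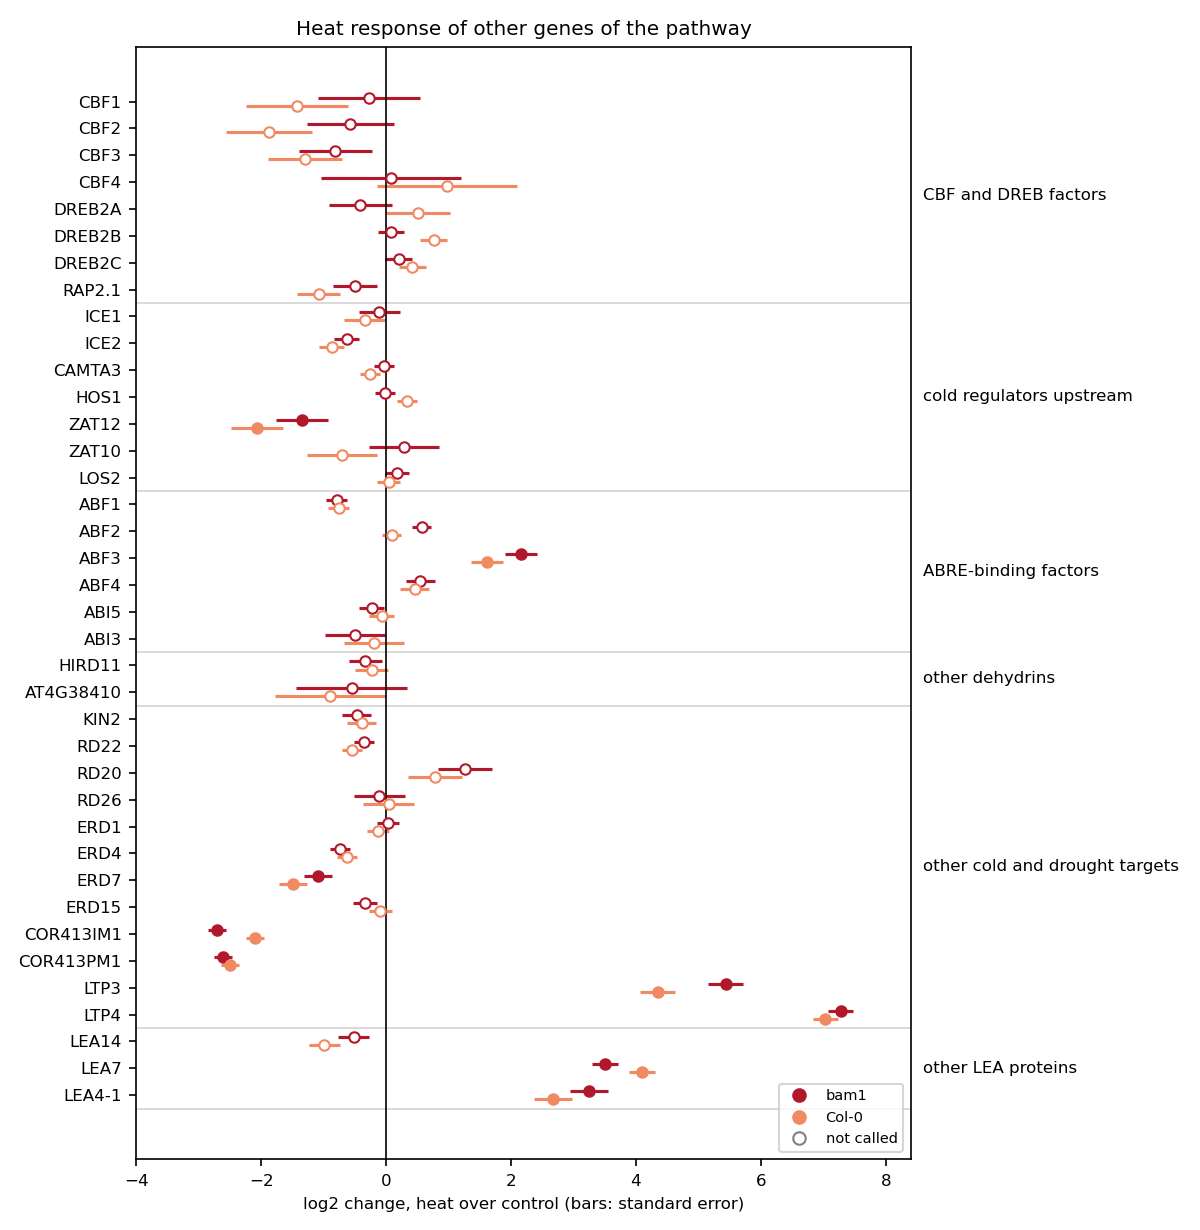
Log2 change (heat over control, ± SE of the limma fit) of the other genes of the cold, drought and ABA response in bam1 and Col-0, by list, after quantile normalization (filled, called at an adjusted P below 0.05 and more than 2-fold; open, not called). COR413PM1, COR413IM1, ERD7 and ZAT12 are called lower and ABF3, LTP3, LTP4, LEA7 and LEA4-1 higher in both genotypes. The bars of LTP4, LEA7 and LEA4-1 rest on control values that were mostly not well above background. These genes passed the filter on low signal only through the heat groups.

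The choice of scaling bore on the bright genes of this set. The 797 probes with a mean log2 intensity of at least 14 had a median heat change of 0.05 in Col-0 and 0.07 in bam1 by quantile normalization, against -0.52 and -0.53 after scaling to the 75th percentile, while the medians over all probes were 0.014 and -0.035 in Col-0. The values of the 10 genes moved with it, by -0.64 to 0.03 in the Col-0 comparison and by -0.65 to 0.07 in the bam1 one. ERD10 and ERD14 therefore joined the called genes in Col-0 under that scaling, and RD29A, LTI30, COR15A and COR15B were called under both.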

How the data were processed

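The authors hybridized Cy3-labelled guard cell RNA to 8 one-colour Agilent arrays and deposited the scanner output of Feature Extraction 11.5.1.1, in which the intensity of a spot is corrected for background and not yet normalized. A second deposited file holds the authors' log2 values, of which 99.7% lay within 0.05 of log2 intensities scaled to the 75th percentile and centred per probe, and 44.7% within 0.05 of quantile-normalized ones. The heat arrays are not described in the linked paper, whose array methods were followed for normalization and thresholds.

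Control spots and spots marked as outliers (9 to 64 per array) were left out, spots of a probe were averaged, log2 intensities were quantile-normalized, and 4 group means were fitted with limma 3.58.1 in R 4.3.3 over all 8 arrays (4 residual degrees of freedom). A probe was tested if 1 or more groups had it well above background on each of their arrays (29620 of 43603), and the adjustment (Benjamini-Hochberg) covered every tested probe. P-values of this fit measure the spread between pools of plants together with the difference between the slides. With 2 arrays a group their number limits the precision.

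Of the probes, 34348 were assigned to 25410 loci through the accessions in the files and the RefSeq table for TAIR10.1, which also gave names and neighbours; the files name TAIR10, so no coordinates are printed. Promoter and protein sequences were not used here. A gene is given by its brightest probe, with its other probes described. Of each list, up to 3 genes called higher and 3 called lower in Col-0 with the same direction on both slides are named, and for RD29A, RAB18, COR15A and COR47 the 3 loci most like them. The genes and lists were chosen with earlier results of these data known. Simulated data with known changes were used to check the fit.

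The replicate number marks the slide, and deviations from the group means of same-numbered arrays correlated in all 6 pairs of groups (r = 0.28 to 0.63), so the slide was fitted as a block in an alternative. The other alternatives were scaling to the 75th percentile, the authors' log2 table, normexp (offset 50), other filters, fits of only the compared groups, limma's trend and robust options, the methods' t-test after ANOVA, the mean of a gene's probes, no fold limit, and leaving out each array. Keeping the marked spots and using each other RAB18 probe were added after seeing the data.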

Additional observations from a re-analysis of the deposited data

How the results depend on the processing

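RD29A, LTI30, COR15A and COR15B were called lower in heat in both genotypes under nearly every alternative. The exceptions were the methods' t-test after Benjamini-Hochberg adjustment, which called 0 of the 10 genes in Col-0 and 0 in bam1 (37 and 4 probes in all), the unadjusted t-test (3 genes in each), a filter on all 8 arrays, which removed LTI30 (3 genes in each), and leaving out bam1 control replicate 2, after which COR15B had no bam1 control value. The unadjusted t-test could not call COR15B in either genotype, because the marked spot left its ANOVA without a value. In bam1 neither t-test was computed for COR15B. Without 1 array at a time, 4 to 5 genes were called in Col-0 and 3 to 4 in bam1. With the replicate block, 5 were called in Col-0 (ERD10 added) and 4 in bam1, and no other call of the 10 genes changed; in the lists it added RAP2.1, BLUS1 and XCP1 (lower in Col-0) and RD20 and LTP1 (higher in bam1); scaling to the 75th percentile and the authors' table called 6 in Col-0. In the genotype comparisons and for the difference of the heat responses, 0 genes were called under every alternative run. Over all probes, normexp called 3631 in Col-0 and 3770 in bam1 and the fit without a fold limit 10513 and 10893, against 6389 and 6626.

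Directions turned only for genes that were not called. In Col-0 the RAB18 change was 0.50 and became 0.00 by the 75th percentile, -0.52 by the mean of its probes and -0.52, -0.75 and -1.31 by its other probes. In bam1, scaling to the 75th percentile and the authors' table each turned RAB18 to -0.13, ERD10 to -0.41 and COR47 to -0.13; probe A_84_P811915 gave -0.21 for RAB18, and the mean of probes gave -0.05 for ERD10. Leaving out 1 array gave ranges of -0.81 to 0.25 (RD29B) and -1.19 to 0.06 (COR47) in Col-0, of -0.42 to 0.69 (RD29B), -0.41 to 0.56 (ERD10) and -0.43 to 1.47 (COR47) in bam1, and of -0.38 to 0.24 for the RAB18 difference between the genotypes in control plants. The cause was not tested. With 2 arrays a group and slides that differ, the change of the brightest COR47 probe missed the threshold with and without the block; for KIN1 the block brought the adjusted P to 0.00709 in Col-0 and 0.00611 in bam1 (limma), and the change stayed under 2-fold. LTI30 in bam1 heat lay close to background.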
